A study of Mus musculus with 5 samples.

Results

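The genes described here are 9 mouse Toll-like receptors (Tlr1, Tlr2, Tlr3, Tlr4, Tlr6, Tlr7, Tlr9, Tlr12 and Tlr13) and Myd88, the adaptor that most of them signal through. They were taken by symbol from a table of read counts over 39056 genes, in which all 10 were found. The table covers 5 RNA-seq libraries of LSK cells (lineage-negative, Sca-1 positive, Kit positive marrow cells, which hold blood stem cells and multipotent progenitors) sorted from C57BL/6 mice at postnatal day 15, with about 12000 cells per library. 3 libraries are Gabbr1 null, from mice that lack a working gene for a subunit of the GABA-B receptor, and 2 are wild type (WT). The sources used here do not say whether each library was made from a separate animal or which part of Gabbr1 was deleted. The p-values therefore reflect library-to-library spread, of which an unknown part may be technical. Libraries are numbered within each genotype in the order of the sample list, and the numbers pair nothing. By its sex-linked transcripts, null library 1 was not made from the same animal as null library 2 or 3.

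Toll-like receptors are innate sensors of microbial and host molecules. Tlr1, Tlr2, Tlr4 and Tlr6 act at the cell surface on lipids and lipoproteins of microbes, while Tlr3, Tlr7, Tlr9, Tlr12 and Tlr13 act in endosomes, where most of them bind nucleic acids. Myd88 links all of these except Tlr3 to the IRAK kinases and NF-kB, and Tlr3 signals through the adaptor Ticam1. Blood stem and progenitor cells are known to express Toll-like receptors and to respond to their ligands with myeloid differentiation.

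Transcripts of 1 receptor rose in Gabbr1 null cells. Tlr9, the endosomal receptor for unmethylated CpG DNA, was 2.45-fold higher in null than in WT libraries. Transcripts of 3 scarce receptors, Tlr3, Tlr1 and Tlr13, were above WT in every null library but did not pass the test. The more abundant surface receptors Tlr2, Tlr4 and Tlr6, the endosomal receptors Tlr7 and Tlr12, and Myd88 had overlapping values in both genotypes. By count, 1 of the 10 genes passed the test upward, against 2.15% of the 13467 genes tested, and 0 passed downward, against 0.334% (2.48% in either direction; edgeR quasi-likelihood test, Benjamini-Hochberg adjusted p under 0.05 over all genes tested). At an unadjusted p under 0.05, 4 of the 10 were higher and 0 lower in edgeR, against 7.99% and 4.84% of all genes tested. Of those 4, Tlr1, Tlr3 and Tlr13 were tested only because of their null libraries, reaching the expression minimum in no WT library, so this count is not evidence about the family either. Also 0 were lower in DESeq2 and limma-voom at the adjusted threshold. A single call among 10 genes is too few to set against that share.

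Total counts were between 7530382 and 8150774 in the null libraries and 7980630 and 6972753 in the WT libraries, and 1 CPM (read counts scaled to a common library size by the TMM method) stood for between 7.02 and 8.13 counts. Gabbr1 was still read in every null library, at 35.5 ± 2.79 CPM in null (SD, n = 3) and 53.4 ± 5.60 CPM in WT (SD, n = 2; edgeR adjusted p = 0.0361). Since the deleted part is unknown this does not check the labels, and the call was lost without null library 2 or 3 or either WT library (adjusted p = 0.0802, 0.137, 0.0722 and 0.380). The gate genes Kit and Ly6a, which encodes Sca-1, did not pass the test (edgeR adjusted p = 0.643 and 0.644). Null library 1 stood apart in sex and in neutrophil transcripts. It had 22532 counts of Xist, the X-inactivation transcript, and 0 counts over 4 Y-linked genes, whereas the other 4 libraries had at most 21 and at least 1140. Its summed level of 12 neutrophil markers was 2312 CPM, against 614 and 139 CPM in null libraries 2 and 3 and 151 and 112 CPM in the WT libraries.

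Levels were compared between genes per kilobase of exon (CPM per kb). Myd88 was the most abundant of the 10, with a mean of 15.9 CPM per kb over all 5 libraries and a range of 13.4 to 17.6 that did not reach the next gene. Tlr2 (5.55), Tlr7 (4.75), Tlr12 (4.06) and Tlr9 (2.73) followed in mean CPM per kb, and each overlapped its neighbour in range. Tlr9 also overlapped Tlr4, whose mean was 1.90 CPM per kb. Tlr6, with a mean of 1.15 CPM per kb, lay apart from its neighbours on both sides. Tlr3, Tlr1 and Tlr13 were lowest, at means of 0.450, 0.407 and 0.308 CPM per kb, and overlapped one another. The mean of Tlr9 was 3.57 CPM per kb in null and 1.46 CPM per kb in WT, above Tlr4 in null (1.83) and below it in WT (2.00).

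**Figure D1:**
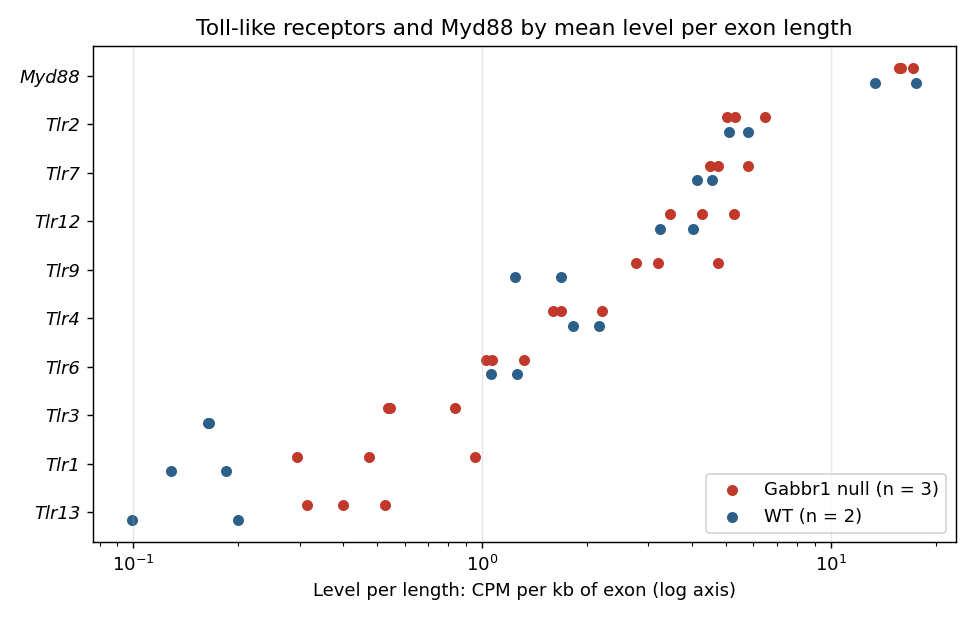
Level per exon length (CPM per kb, log axis) of the 10 genes in each library, ordered by the mean over 5 libraries, with Gabbr1 null in red (n = 3) and WT in blue (n = 2). Myd88 lies between 13.4 and 17.6 in every library, and the null points of Tlr9, Tlr3, Tlr1 and Tlr13 all lie to the right of the WT points.

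Among the surface receptors, Tlr2, which senses bacterial lipoproteins as a partner of Tlr1 or Tlr6 (chromosome 3, 83836272 to 83841767, minus strand, mm10), had 16.0, 15.2 and 19.6 CPM in null libraries 1, 2 and 3, against 15.4 and 17.5 CPM in WT libraries 1 and 2. The groups overlapped, and the log2 fold change of null over WT was 0.04 ± 0.19 (SE; 95% interval -0.36 to 0.45; edgeR adjusted p = 0.959). Tlr4, the receptor for lipopolysaccharide (chromosome 4, 66827584 to 66930284, plus strand), had 12.3, 9.37 and 8.88 CPM in null, against 12.1 and 10.1 CPM in WT. Null library 1 and WT library 1 were highest, and the groups overlapped. The log2 fold change was -0.13 ± 0.23 (SE; 95% interval -0.63 to 0.37; edgeR adjusted p = 0.888).

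Tlr6, which pairs with Tlr2 for diacylated lipoproteins, had 4.00, 3.83 and 4.93 CPM in null, against 3.94 and 4.70 CPM in WT, with overlapping groups (log2 fold change -0.02 ± 0.32 SE; 95% interval -0.72 to 0.69; edgeR adjusted p = 0.992). Its sign turned in 3 of 11 alternative fits. Tlr1, which pairs with Tlr2 for triacylated lipoproteins, had 24, 12 and 8 counts in null, against 5 and 3 counts in WT. Every null library was above both WT libraries, and null library 1 was highest. The log2 fold change was 1.83 ± 0.70 (SE; 95% interval 0.31 to 3.35), short of the threshold (edgeR adjusted p = 0.273). Tlr1 reached the expression filter only in null libraries 1 and 2, at a minimum of 1.28 CPM.

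Tlr1 and Tlr6 lie next to each other on chromosome 5 (Tlr1 at 64924679 to 64933563 and Tlr6 at 64952031 to 64960097, minus strand, mm10) and share long coding stretches, so that short reads can fit both. Of all distinct 50-base words in Tlr1 transcripts, the length of 1 read here, 13.6% also occur in Tlr6. Their longest identical coding run is 229 bases. Most 50-base words therefore tell the genes apart. The 130 bases below were chosen at the end of the 229-base run. They start with its last 20 bases and differ at 2 positions, given in capitals. A 50-base word within them tells the genes apart where it covers at least 1 of those positions. The sequences are from GENCODE transcripts (coding strand, 5′ to 3′, chr5:64925427-64925556 for Tlr1 and chr5:64953718-64953847 for Tlr6).
Tlr1: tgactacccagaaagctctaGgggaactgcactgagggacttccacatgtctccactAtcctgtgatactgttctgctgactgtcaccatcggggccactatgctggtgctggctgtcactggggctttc
Tlr6: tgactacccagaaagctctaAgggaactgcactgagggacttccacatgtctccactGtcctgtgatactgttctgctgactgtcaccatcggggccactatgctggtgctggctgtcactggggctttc
The sources used here do not say how reads with several matches were treated, so the split between these genes is uncertain. Summed, Tlr1 and Tlr6 had 54, 41 and 48 counts in null, against 37 and 36 counts in WT.

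Among the endosomal receptors, Tlr9 (ENSMUSG00000045322.10, chromosome 9, 106222598 to 106226883, plus strand, mm10) had 124, 73 and 90 counts in null libraries 1, 2 and 3, against 35 and 41 counts in WT libraries 1 and 2. These were 16.5, 9.63 and 11.1 CPM in null, against 4.31 and 5.84 CPM in WT. The lowest null library was above the higher WT library, and null library 1 was the highest. The mean was 12.4 ± 3.63 CPM in null (SD, n = 3) and 5.07 ± 1.08 CPM in WT (SD, n = 2), which is 1.29 ± 0.30 higher in null on the log2 scale (SE; 95% interval 0.65 to 1.94; edgeR adjusted p = 0.0400). None of its 50-base words occurs in another annotated transcript. The call held in 7 of 11 alternative fits, among them DESeq2 (adjusted p = 0.0106). It was lost without null library 1 (log2 fold change 1.04, edgeR adjusted p = 0.103), without WT library 1 (1.08, 0.210) or without WT library 2 (1.52, 0.274), and in limma-voom (1.27, adjusted p = 0.0884).

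**Figure D2:**
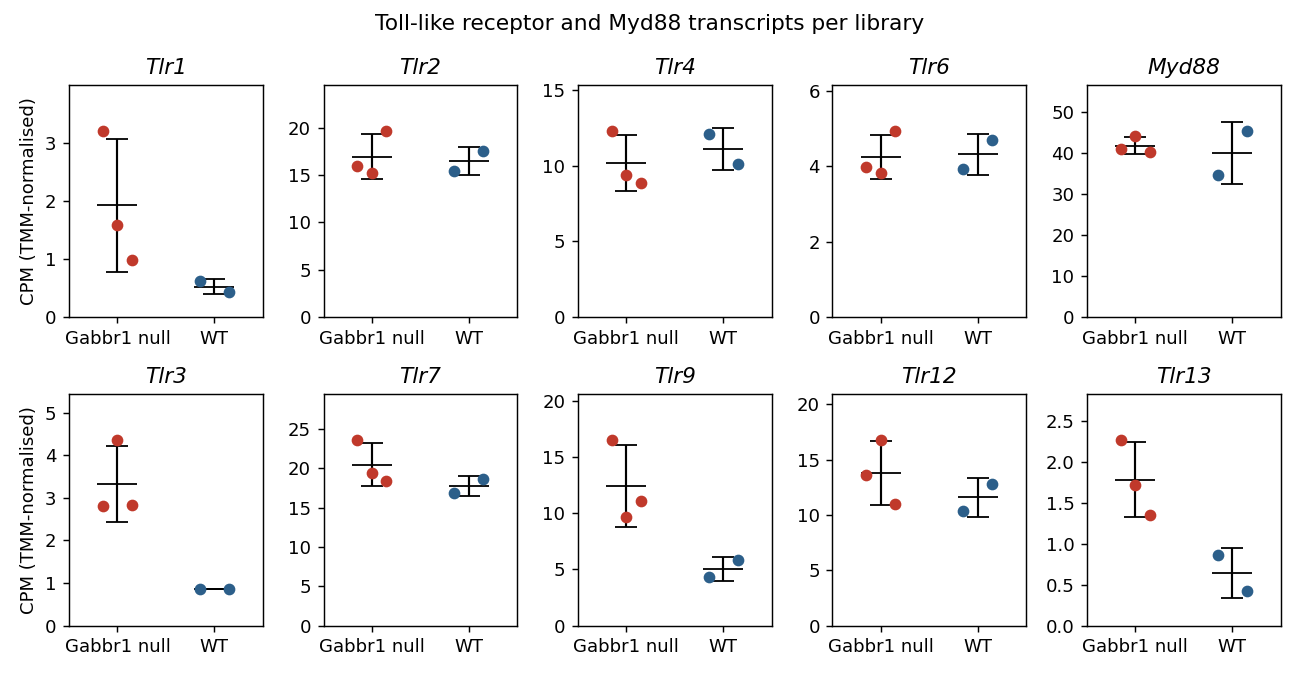
TMM-normalised CPM of each gene in Gabbr1 null (red, n = 3) and WT (blue, n = 2) libraries, with points for libraries and black bars for the mean and SD; surface receptors and Myd88 are above, endosomal receptors below. Tlr9 lies between 9.63 and 16.5 CPM in null and at 4.31 and 5.84 CPM in WT, while Tlr2, Tlr4, Tlr6, Tlr7, Tlr12 and Myd88 overlap between the groups.

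The 250 bases before the annotated start of Tlr9 are shown because it is the receptor whose transcripts rose (RefSeq, GRCm38, plus strand, chr9:106222348-106222597). Capitals mark, from 5′ to 3′, a PU.1-type ETS motif (GAGGAAG), an octamer (ATGCAAAT) and an AP-1 motif (TGACTCA), which start 112, 72 and 58 bases before the start.
Tlr9 upstream: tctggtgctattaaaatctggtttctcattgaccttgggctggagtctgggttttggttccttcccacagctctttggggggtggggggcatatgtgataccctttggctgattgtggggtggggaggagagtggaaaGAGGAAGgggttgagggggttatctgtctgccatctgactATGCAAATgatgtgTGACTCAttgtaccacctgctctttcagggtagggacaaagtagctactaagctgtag
These 3 motifs, which do not overlap one another here, were chosen after the sequence was seen. Searched on both strands, they occur in 10.6%, 1.60% and 4.46% of 32851 upstream windows of this length. A consensus NF-kB motif, an interferon response element and a palindromic EBF motif were also searched and gave no match in Tlr9. They occur in 0.980%, 2.98% and 0.779% of windows. RefSeq windows were matched for 8 of the 10 genes. GAGGAAG also occurred upstream of Tlr1 (1 of its 2 windows) and Tlr13, the NF-kB motif upstream of Tlr2 and Tlr3, and the interferon response element upstream of Myd88 and of Tlr6 (1 of its 2 windows). The octamer and the AP-1 motif were found in none of the other 7 genes' windows, and the EBF motif in none of the 8.

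Tlr3, the receptor for double-stranded RNA (chromosome 8, 45395665 to 45411080, minus strand, mm10), had 21, 33 and 23 counts in null, against 7 and 6 counts in WT. These were 2.80, 4.36 and 2.84 CPM in null, against 0.862 and 0.855 CPM in WT. Of the 5207 exon bases of Tlr3, 381 overlap an antisense gene that has no row of counts, and whether counting used strand is not stated. All 3 null libraries were above both WT libraries for Tlr3, at low counts, with null library 2 highest. The log2 fold change was 1.93 ± 0.49 (SE; 95% interval 0.86 to 3.01) and narrowly missed the threshold (edgeR adjusted p = 0.0690). It passed with no filter on low counts (adjusted p = 0.0126) and in the robust fit (0.0497), and in none of the other 8 alternatives that tested it, where adjusted p reached 0.450.

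Tlr13, a receptor for bacterial ribosomal RNA that is present in mice but not in humans (chromosome X, 106143204 to 106160493, plus strand), had 17, 13 and 11 counts in null, against 7 and 3 counts in WT. The groups did not overlap, and the log2 fold change of 1.41 ± 0.60 (SE; 95% interval 0.11 to 2.72) did not pass (edgeR adjusted p = 0.340). In total, 4 of the 10 genes had null values wholly above WT values, against 15.5% of all genes tested, and 0 wholly below, against 13.7% (29.2% in either direction). Tlr1, Tlr3 and Tlr13 reached the expression filter in no WT library, so they could enter the test only by being higher in null, and that count is not evidence about the family.

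Tlr7, the receptor for single-stranded RNA (chromosome X, 167304929 to 167330558, minus strand), was the endosomal receptor with the most counts. It had 23.6, 19.4 and 18.4 CPM in null, against 16.9 and 18.7 CPM in WT. Null library 1 was highest, and the groups overlapped (log2 fold change 0.20 ± 0.18 SE; 95% interval -0.18 to 0.59; edgeR adjusted p = 0.712). Tlr7 and Tlr13 are both on the X chromosome, and Tlr7 is known to escape X inactivation in some human cells. Without null library 1, the only library with Xist at a high level, the log2 fold change was 0.09 for Tlr7 and 1.21 for Tlr13 (edgeR adjusted p = 0.943 and 0.602). Tlr12, which senses a profilin of parasites in mice (chromosome 4, 128615443 to 128618619, minus strand), had 13.6, 16.8 and 11.0 CPM in null, against 10.3 and 12.8 CPM in WT. Its groups overlapped, with null library 2 highest (log2 fold change 0.25 ± 0.23 SE; 95% interval -0.24 to 0.75; edgeR adjusted p = 0.725).

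Summed over the 5 endosomal receptors, the level was 58.8, 51.9 and 44.6 CPM in null, against 33.2 and 38.6 CPM in WT. Summed over the 4 surface receptors it was 35.4, 30.0 and 34.4 CPM in null, against 32.0 and 32.8 CPM in WT. The endosomal sums did not overlap and the surface sums did. Of the difference of 16.7 CPM in the mean sum of all 9 receptors, null minus WT, Tlr9 made up 7.35 CPM, Tlr7 2.69 CPM, Tlr3 2.47 CPM and Tlr12 2.19 CPM. This grouping was made with the values known and is given as a description.

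Myd88 (chromosome 9, 119335934 to 119341411, minus strand) had 40.9, 44.2 and 40.3 CPM in null, against 34.6 and 45.3 CPM in WT. The WT libraries lay on both sides of the null ones. The log2 fold change was 0.07 ± 0.14 (SE; 95% interval -0.25 to 0.39; edgeR adjusted p = 0.905), and it was -0.13 without WT library 1 and 0.27 without WT library 2. Of its 2576 exon bases, 290 overlap Acaa1a on the other strand, which did not pass either (edgeR adjusted p = 0.945). Whether counting used strand is not stated in these sources.

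**Figure D3:**
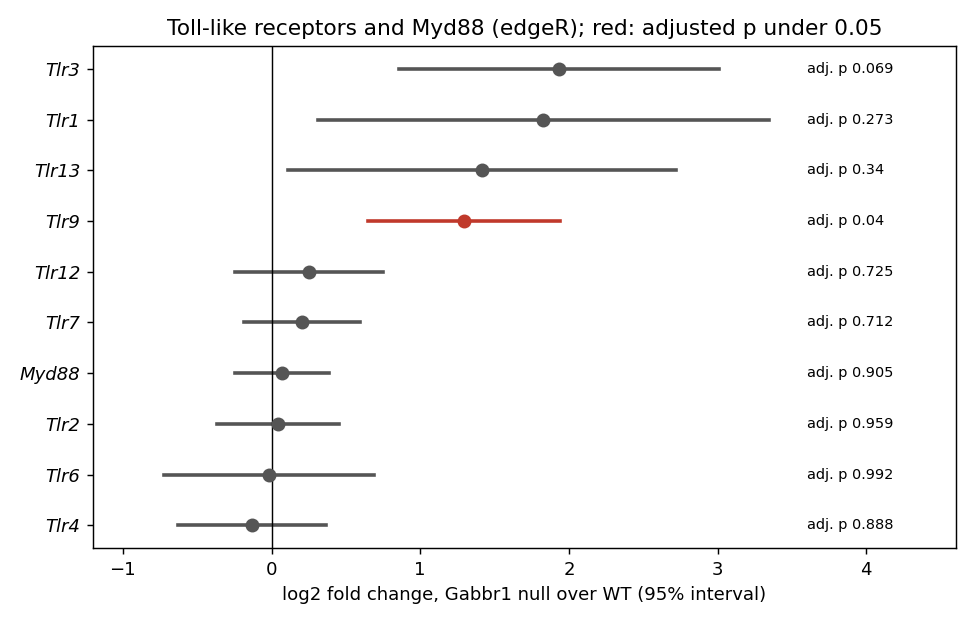
Log2 fold change of Gabbr1 null over WT for each gene with its 95% interval (lines) and edgeR adjusted p, with the gene past the threshold in red. Tlr9 is at 1.29 with an interval of 0.65 to 1.94, and the intervals of Tlr12, Tlr7, Myd88, Tlr2, Tlr6 and Tlr4 include 0.

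Likeness of pattern was measured as the root mean square difference of centred log2 CPM over the 5 libraries, for Myd88 and for the 2 receptors that varied most, Tlr3 and Tlr1. Among 9658 genes of at least 10 CPM on average, the nearest to Tlr3 were Dhx40, Sorcs2 and Dtx4 (0.253, 0.285 and 0.292 on the log2 scale). The nearest to Tlr1 were Id2, Cd74 and Aqp1 (0.128, 0.148 and 0.172). Cd74, the invariant chain of MHC class II, had 128, 71.7 and 52.4 CPM in null, against 31.9 and 25.3 CPM in WT, the same order of libraries as Tlr1. The nearest to Myd88 were Vps13c, Mgme1 and Vps51 (0.0208, 0.0210 and 0.0228). Counts of Tlr3 and Tlr1 are low (6 to 33 and 3 to 24 per library), and the 0.5 CPM added before taking logs narrows their range. Among 9658 genes over 5 libraries some can lie near by coincidence, so likeness is a description only.

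Tlr9 is known to be expressed in B cells, plasmacytoid dendritic cells and macrophages, and some markers of other cell types rose in null libraries as well. In bulk libraries, more cells of a type and more RNA per cell cannot be told apart. Of 13 B lineage markers, 11 rose and 1, Igkc, fell (edgeR), and their summed level was 1208 to 1645 CPM in null, against 812 to 1247 CPM in WT, which overlap. Most of the WT sum was Ighm (506 and 835 CPM in WT libraries 1 and 2), which did not pass, and Igkc (151 and 341 CPM). The markers that rose did not overlap between the groups. Among them, Ms4a1, Cd22 and Blk did not reach 1.28 CPM in both WT libraries, so they entered the test through the null libraries. The Igkc call was absent in DESeq2 and limma-voom (adjusted p = 0.355 and 0.0676), and 6 markers rose in the robust fit and 3 without WT library 2. Pax5, the commitment factor of the B lineage, had 174, 123 and 182 CPM in null, against 28.8 and 7.41 CPM in WT. Of 12 monocyte and macrophage markers, 8 were tested and 2 rose, Ccr2 and F13a1. The summed level of the 12 was 47.0 to 118 CPM in null, against 47.3 to 57.1 CPM in WT, which overlap. Neither Ccr2 nor F13a1 reached 1.28 CPM in both WT libraries, so they entered the test through the null libraries. Both calls were lost in limma-voom (adjusted p = 0.0993 and 0.154) and without either WT library, F13a1 also in the robust fit (0.145), and Ccr2 was not tested under the filter of 1 CPM in every library. Of 11 dendritic cell markers, 8 were tested and 1 rose. This was Irf8, a transcription factor of dendritic cells and monocytes, with 159, 86.6 and 77.7 CPM in null, against 39.1 and 34.5 CPM in WT. Its call was lost in the robust fit (adjusted p = 0.318) and without WT library 1 or 2 (0.115 and 0.304). At an unadjusted p under 0.05, 3 dendritic markers were higher and 2 lower. The higher ones were Irf8, Zbtb46 and Itgax (edgeR adjusted p = 0.00728, 0.12 and 0.134). The lower ones were Ccr9, with 11.5, 10.2 and 14.4 CPM in null, against 22.5 and 16.4 CPM in WT, and Flt3 (edgeR adjusted p = 0.149 and 0.318). Siglech, Bst2, Tcf4 and Ccr9, known from plasmacytoid dendritic cells, did not pass (edgeR adjusted p = 0.525, 0.854, 0.606 and 0.149). Their log2 fold changes were 1.54 ± 0.90, -0.16 ± 0.24, 0.16 ± 0.11 and -0.70 ± 0.21 (SE). Siglech had 67, 19 and 5 counts in null, against 18 and 3 counts in WT. The summed level of the dendritic list, most of it Flt3, was 1049 to 1139 CPM in null, against 1172 to 1180 CPM in WT. Of 12 neutrophil markers, 9 were tested and 0 passed in edgeR, while 8 were higher at an unadjusted p under 0.05, and Mmp8 was at 0 in WT. With no filter on low counts 8 passed, and without null library 3 also 8. Of 11 endothelial and stromal markers, 7 rose, with a summed level of 306 to 384 CPM in null, against 180 and 188 CPM in WT, and Lepr was at 0 in WT. Most of the WT sum was Pecam1 (139 and 144 CPM), which did not pass (edgeR adjusted p = 0.211). None of those 7 reached 1.28 CPM in both WT libraries, so they entered the test through the null libraries. All 7 were under 1 CPM in WT library 1, so the filter of 1 CPM in every library left them untested. Of the 4 other markers tested under that filter, 1 rose. The part of these cells in the Tlr9 result was not tested.

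**Figure D4:**
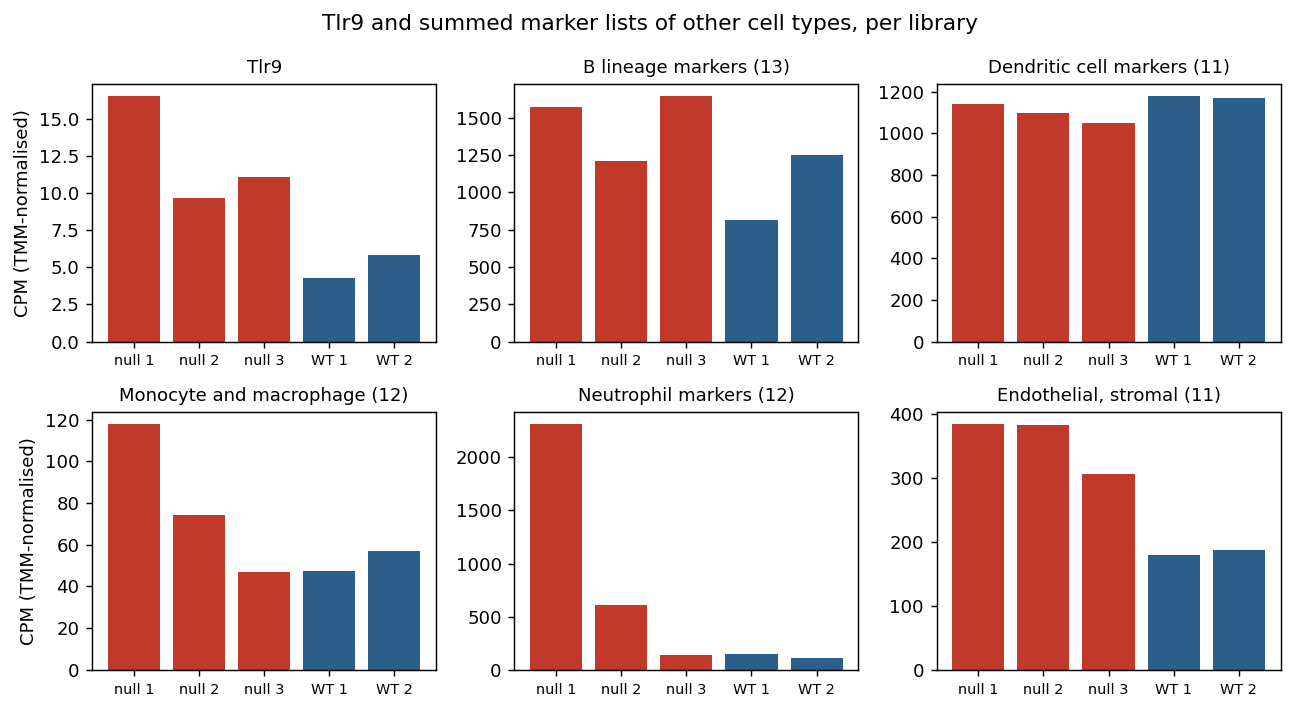
CPM of Tlr9 and summed CPM of 5 marker lists in each library (bars; Gabbr1 null red, WT blue; number of genes in brackets). Tlr9 is highest in null library 1, as are the monocyte and macrophage sum (118 CPM) and the neutrophil sum (2312 CPM). The endothelial and stromal sum is 384 CPM in null library 1 and 383 CPM in null library 2. The B lineage sum is highest in null library 3 (1645 CPM). Its largest part is Ighm, with 734 CPM in null library 3 and 672 CPM in null library 1. The dendritic cell sum is highest in WT library 1 (1180 CPM).

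Of the Toll-like receptors outside the 10, Tlr5, the flagellin receptor, had 21, 11 and 14 counts in null, against 28 and 11 counts in WT, and did not pass (edgeR adjusted p = 0.848). Tlr11 had 10, 4 and 6 counts in null, against 3 and 0 in WT, and Tlr8 had 1 count in null library 2 and 0 in the other libraries. Both were too low to test.

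Around the receptors, 81 genes of 7 lists (co-receptors and chaperones, other adaptors, IL-1 family receptors, signal transducers, negative regulators, inflammatory targets and other pattern recognition genes) gave 70 tested genes. Of these 3 rose and 3 fell, which is 4.29% in each direction, against 2.15% higher and 0.334% lower over all genes tested. Their median log2 fold change was -0.03, and that of all genes tested was -0.004. The 7 lists were chosen with earlier results of these data known, so these shares are a description and not evidence about the pathway. Of the 3 genes that rose, Cd36 and Il1rl1 reached the expression minimum of 1.28 CPM in WT library 1 but not in WT library 2. They entered the test only with their null libraries.

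Of 12 tested co-receptors and chaperones, 1 rose and 0 fell, with a median log2 fold change of 0.14. At an unadjusted p under 0.05, 5 were higher and 0 lower in edgeR, against 7.99% and 4.84% of all genes tested. Of those 5, Cd36 and Ly86 entered the test only with their null libraries, so the count is a description. Cd36, a scavenger receptor that serves Tlr2 with Tlr6, had 10.5, 8.97 and 11.6 CPM in null, against 2.58 and 0.997 CPM in WT (log2 fold change 2.49 ± 0.37, SE; adjusted p by edgeR = 0.00321). Cd36 is also known from endothelium and platelets, and its call was lost without WT library 2 (adjusted p = 0.0976). Unc93b1, the chaperone that carries Tlr3, Tlr7, Tlr9 and Tlr13 to endosomes, had 182, 140 and 154 CPM in null, against 111 and 122 CPM in WT. Its groups did not overlap, but the log2 fold change of 0.45 ± 0.13 (SE) did not pass (edgeR adjusted p = 0.112). Ly86, the partner of the receptor-like protein Cd180, had 56, 16 and 23 counts in null, against 6 and 0 in WT, and did not pass (edgeR adjusted p = 0.0711). It passed in DESeq2 (adjusted p = 0.00465), with no filter on low counts (1.24e-06) and without null library 2 or 3 (0.0312 and 0.0481). Cd14, the lipopolysaccharide co-receptor of macrophages, had at most 2 counts in any library, and Ly96, the subunit of Tlr4 that binds lipopolysaccharide, had 23, 28 and 33 counts in null, against 32 and 27 counts in WT.

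None of the 4 tested adaptors passed (edgeR, DESeq2 and limma-voom). At an unadjusted p under 0.05, 1 was higher and 0 lower in edgeR. This was Pik3ap1, an adaptor between receptors and PI3 kinase, at 0.32 ± 0.11 (SE) above WT in log2 terms, with edgeR adjusted p = 0.197. Ticam1, the adaptor of Tlr3, and Tirap, which bridges Tlr2 and Tlr4 to Myd88, differed between null and WT by -0.10 ± 0.17 and 0.24 ± 0.20 in log2 terms (SE), with edgeR adjusted p = 0.872 and 0.686.

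The 6 IL-1 family receptors, which signal through Myd88 too, gave 1 gene that rose and 1 that fell, with a median log2 fold change of 0.06. Il1r1, the signalling receptor for interleukin-1, fell to 59.0, 57.3 and 50.9 CPM in null, against 83.3 and 81.2 CPM in WT. The groups lay well apart (log2 fold change -0.56 ± 0.11, SE; adjusted p by edgeR = 0.0192), and the call was lost without null library 3, WT library 1 or WT library 2 (adjusted p = 0.0908, 0.0862 and 0.158). Il1rl1, the interleukin-33 receptor known from mast cells, had 90, 62 and 59 counts in null, against 17 and 1 in WT (log2 fold change 2.95 ± 0.57, SE; adjusted p by edgeR = 0.0160). That call was absent in DESeq2 (adjusted p = 0.102) and lost without WT library 2 (0.171).

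None of the 18 signal transducers and none of the 9 negative regulators passed in edgeR. At an unadjusted p under 0.05, 1 of each list was lower and 0 higher. Irak1, a kinase recruited by Myd88, had 196, 193 and 178 CPM in null, against 221 and 227 CPM in WT (log2 fold change -0.25 ± 0.10, SE; adjusted p by edgeR = 0.334). Tnip1, which restrains NF-kB together with Tnfaip3, had 63.7, 68.4 and 74.0 CPM in null, against 81.6 and 93.1 CPM in WT (log2 fold change -0.35 ± 0.11, SE; adjusted p by edgeR = 0.192). The median log2 fold change was 0.03 for the transducers and -0.09 for the negative regulators.

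Of 10 tested inflammatory target genes, 1 rose and 2 fell. At an unadjusted p under 0.05, 1 was higher and 6 lower in edgeR, against 7.99% and 4.84% of all genes tested. The log2 fold change was negative for 9, against 6838 of the 13467 genes tested, and the median was -0.43. This list was chosen with earlier results of these data known, so its counts are a description and not evidence about inflammatory signalling. Nfkbiz, which encodes the inducible nuclear regulator I-kappa-B zeta, fell to 39.2, 41.0 and 36.1 CPM in null, against 66.1 and 79.9 CPM in WT (log2 fold change -0.91 ± 0.13, SE; adjusted p by edgeR = 0.00208). Nfkbid, a related nuclear regulator, fell to 24.0, 23.9 and 20.1 CPM in null, against 33.6 and 44.1 CPM in WT (log2 fold change -0.78 ± 0.16, SE; adjusted p by edgeR = 0.0280). Both calls were lost without WT library 2 (adjusted p = 0.0853 and 0.386), and Nfkbid also without null library 3 (0.0924) or WT library 1 (0.0502). Marcks, a substrate of protein kinase C at the cell membrane, rose to 155, 133 and 151 CPM in null, against 86.5 and 77.9 CPM in WT (log2 fold change 0.83 ± 0.12, SE; adjusted p by edgeR = 0.00226), and its call was lost without WT library 2 (0.0950). Il6 and Cxcl1, cytokine genes that macrophages induce through these receptors, had 0 counts in every library, and Il1b had at most 2.

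None of the 11 tested genes for other pattern recognition receptors and their adaptors passed in edgeR, and at an unadjusted p under 0.05, 1 was lower and 0 higher. Cgas, the sensor of cytosolic DNA, had 57.2, 58.3 and 51.0 CPM in null, against 70.3 and 66.1 CPM in WT (log2 fold change -0.30 ± 0.11, SE; adjusted p by edgeR = 0.279). The median of the list was -0.14.

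**Figure D5:**
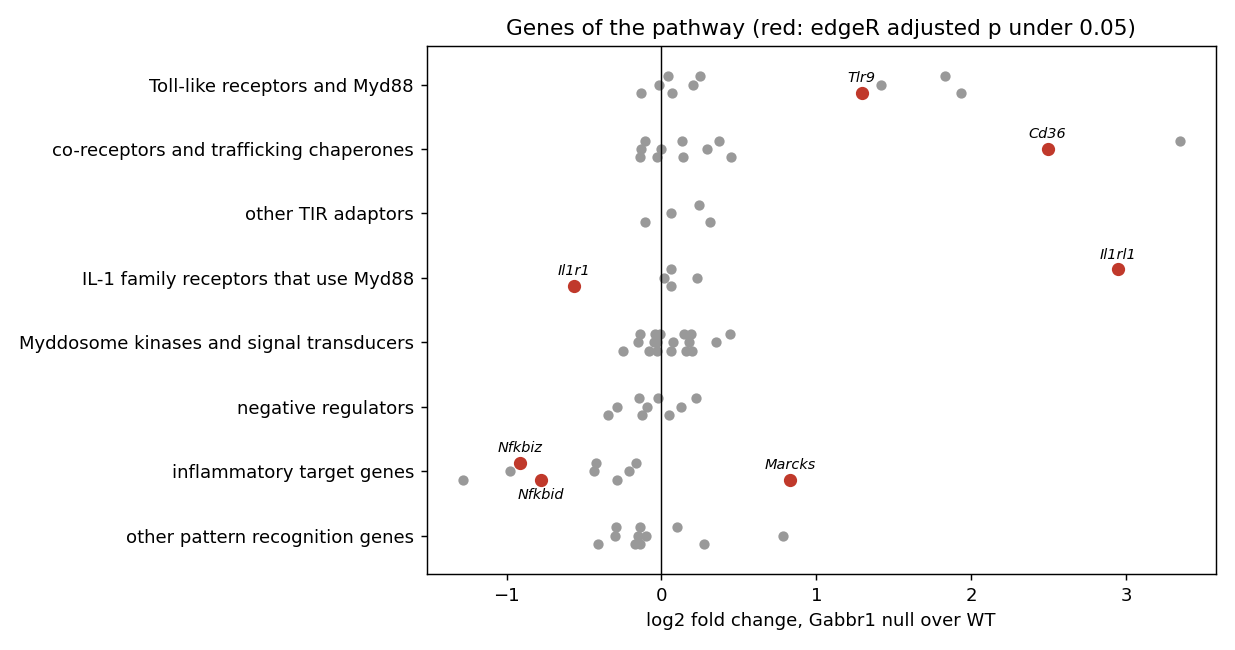
Log2 fold change of Gabbr1 null over WT for every tested gene of the receptor family and of 7 related lists, 1 dot per gene, red and named where edgeR's adjusted p was under 0.05. Tlr9 (1.29), Cd36 (2.49), Il1rl1 (2.95) and Marcks (0.83) lie to the right of 0, and Il1r1 (-0.56), Nfkbiz (-0.91) and Nfkbid (-0.78) to the left.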

How the data were processed

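RNA from sorted LSK cells was made into libraries from 3.6 to 5 ng of input with ribosomal depletion and read as pairs of 50 bases, per the labels' protocols; the molecule field says polyA RNA, which differs. STAR, featureCounts and mm10 are named in the submitters' processing notes. The authors deposited raw counts per gene for each library; tool versions, the annotation release, strandedness and how multiply matching reads or PCR duplicates were handled: not given in the sources used here. According to the labels, the design has 2 WT and 3 null animals and the extraction used 4 of each.

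Symbols, exon lengths and coordinates came from GENCODE M21 (99.5% of identifiers matched). Genes were kept with filterByExpr, scaled with TMM and tested with edgeR 4.0.16 (glmQLFit and glmQLFTest, genotype as the only term, 3 residual degrees of freedom) in R 4.3.3. SEs were derived from the F statistic and intervals are 95%. All 10 genes passed the filter. Likeness used log2 of CPM plus 0.5. DESeq2 1.42.0, limma-voom (limma 3.58.1), a robust fit, RLE factors, 2 other filters and each library left out were alternatives; a lone WT library is then taken to vary as the null libraries do. The code was tested on simulated counts of the same design, where it recovered most changed genes in the right direction but made more false calls than the nominal rate, so calls near the threshold, such as that of Tlr9, are less secure than their adjusted p states. Replicates differed by more than sampling noise (chi-square per degree of freedom 8.21 to 13.1). The genes and lists were chosen with earlier results of these data known. Named by rule were the 10 genes, Gabbr1, Kit, Ly6a, list genes past the threshold or among the 3 lowest p of a list, and the most abundant markers. The text gives a selection, and Ly96, Cd14, Acaa1a, Tlr8, Tlr11, Il6, Cxcl1, Il1b, Mmp8, Xist, the Y-linked genes, Ccr9, Siglech and Bst2 were added after their values were seen.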

Additional observations from a re-analysis of the deposited data

How the results depend on the processing

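Of the 10 genes, the direction of Tlr1, Tlr3, Tlr4, Tlr7, Tlr9, Tlr12 and Tlr13 was kept in every alternative that tested them. With no filter on low counts 602 genes were higher and 155 lower, and 2 of the 10 were higher (Tlr9 and Tlr3). A minimum of 1 CPM in every library gave 173 higher genes and tested 7 of the 10. The robust fit gave 2 of the 10 higher and limma-voom 0. With each library omitted in turn, the number of higher genes was 32 to 316 and of lower genes 0 to 51, and 0 to 1 of the 10 were higher. The lowest counts came without WT library 2, with 1 WT library left; without WT library 1, 101 genes were higher, and without null library 3, 15 were lower. Signs turned for 8 genes that did not pass: over the libraries left out, the log2 fold change was -0.075 to 0.14 for Tlr2, -0.15 to 0.11 for Tlr6, -0.13 to 0.27 for Myd88, -0.79 to 0.33 for Tlr5, -0.19 to 0.67 for Csf1r, -0.041 to 0.071 for Emcn, -0.038 to 0.55 for Tank and -0.34 to 0.39 for Ighm, which was 0.024 in limma-voom. The cause was not tested. Depth limits Tlr1, Tlr3 and Tlr13, with 3 to 7 counts per WT library. No paired analysis was possible because the labels carry no replicate numbers.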
